A study of Homo sapiens with 18 samples.

Results

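Control spheroids of MDA-MB-231 cells that had spent 24 h in a collagen hydrogel were compared with control spheroids taken straight from the hanging droplets in which they formed. MDA-MB-231 is an established triple-negative breast cancer line. The comparison holds 6 of the 18 RNA-seq libraries of the series, 3 per condition, chosen from the labels by genotype (Wildtype, called control here) and by time. All spheroids were built from 2000 cells each over 5 days in droplets, and each library came from spheroids adding up to 100000 cells. The 24 h spheroids were then embedded in collagen, cut out of the gel and freed over some minutes with 2 mg/ml Type 7 collagenase in HBSS at 37 °C. Droplet spheroids were washed off and pelleted without digestion, and they were harvested earlier. Contact with collagen, the added time and the digestion therefore changed together between the 24 h and droplet groups, and their parts in any difference cannot be told apart. For context, 6 further libraries came from MMP14-KO spheroids at the same steps, made from cells in which the collagenase MMP14 had been targeted, and 3 came from control spheroids after 48 h in collagen. The labels do not say whether replicates were separate cultures, so p-values measure only the spread between these samples.

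Cells meet fibrillar collagen through integrins and discoidin receptors and pull on it through actomyosin. Contact and tension are passed on by kinases to fast transcription factors of the AP-1 and EGR families, and by the coactivators YAP, TAZ and MRTF to slower programmes of matrix and cytoskeleton genes. Invading carcinoma cells cut collagen with membrane-bound and secreted metalloproteinases, while growth in a compact spheroid limits division, oxygen and nutrients.

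The 24 h libraries held 24196607, 25924634 and 33352163 counts and the droplet libraries 21368840, 27930587 and 26719431. Levels are given below as CPM, counts scaled to a common library total after TMM normalisation, which corrects library sizes for composition. They are not divided by transcript length and are compared between samples, not between genes. Log2 CPM correlated at 0.987 to 0.991 between libraries of 1 group and at 0.964 to 0.971 between groups. Replicates of a group differed from each other by 4.47 to 12 times the variance that sampling alone gives. The line's own markers were high in all 6 libraries, with a summed 7885 to 8253 CPM at 24 h and 5481 to 5928 CPM in droplets for 8 genes that include VIM, CD44 and AXL. ESR1, PGR, CDH1 and FOXA1, which the line is known to lack, each averaged under 1 CPM in both groups. Other listed markers were not as low. The 6 receptors listed as absent summed to 7.77 to 9.23 CPM at 24 h and 11.5 to 12.2 CPM in droplets. The 13 listed luminal breast epithelium markers summed to 624 to 687 CPM at 24 h and 649 to 715 CPM in droplets. Of the 8 luminal markers tested 6 fell and 1 rose. Of 12 listed leukocyte markers 6 passed the filter on low counts, and CD3E, MS4A1 and SPI1 had 0 counts in all 6 libraries. In the MMP14-KO libraries MMP14 averaged 153 ± 11.6 CPM at 24 h and 154 ± 5.20 CPM in droplets (SD, n = 3 each), against 1713 to 2250 CPM in the 6 control libraries.

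Among 17030 genes tested by edgeR's quasi-likelihood method, with calls made at adjusted p under 0.05, 4742 rose and 4880 fell at 24 h, which are 27.8% and 28.7% of the genes tested. The median log2 fold change (24 h over droplet) was -0.0035 and the median absolute log2 fold change was 0.36, so most calls were small. A change of at least 2-fold was called up for 1032 genes (6.06%) and down for 970 (5.7%), and 50 genes rose and 50 fell at least 8-fold. The 24 h and droplet libraries did not overlap for 10562 genes, 62.0% of those tested. Calls were made for 24.8% of genes averaging under 1 CPM and for 72.5% of those over 100 CPM. Cytosolic ribosomal protein genes took 3.19 ± 0.141% of counts at 24 h and 2.48 ± 0.170% in droplets (SD, n = 3 each), with no overlap and an exact two-sided permutation p of 0.1, the smallest that 3 against 3 libraries allow. Mitochondrially encoded genes took 2.55 ± 0.187% and 2.46 ± 0.307%, which overlapped (exact permutation p = 0.6).

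**Figure D1:**
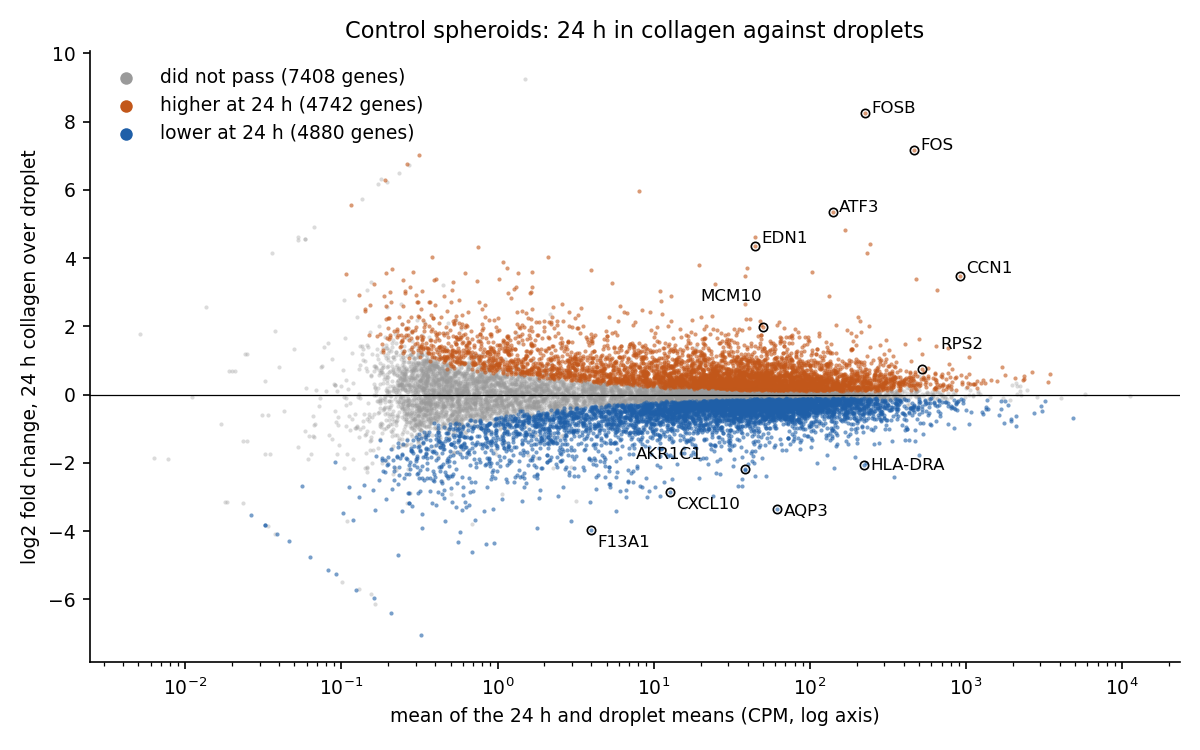
Log2 fold change of 24 h collagen over droplet control spheroids (y axis) against mean CPM (x axis, log scale) for the 17030 genes tested, with the genes that passed edgeR's test coloured by direction. Open circles mark named genes, with FOSB and FOS at 8.26 and 7.18 and F13A1 at -3.96.

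Large rises were made by immediate-early genes, which cells switch on within minutes of a stimulus without new protein. FOSB, an AP-1 subunit, had 472, 494 and 378 CPM at 24 h, against 1.59, 1.64 and 1.17 CPM in droplets. Its log2 fold change was 8.26 ± 0.16 (SE; adjusted p = 2.03e-16, edgeR's quasi-likelihood test, here and below), and the groups lay far apart. FOS, its close relative, had 1026, 926 and 836 CPM at 24 h and 7.57, 6.17 and 5.64 CPM in droplets (log2 7.18 ± 0.14, adjusted p = 2.03e-16). ATF3, a stress-induced partner of AP-1, had 279.6, 306 and 235 CPM at 24 h and 7.80, 6.46 and 6.17 CPM in droplets (log2 5.34 ± 0.15, adjusted p = 2.10e-13). Droplet spheroids thus carried these transcripts at low but counted levels, and every 24 h library was far above every droplet library. The digested libraries are the 24 h libraries, so what digestion itself added to these fast transcripts cannot be told apart. FOSB lies on chromosome 19 (45467995 to 45475179, plus strand, GENCODE 29 on GRCh38) and is overlapped on the other strand by ERCC1. ERCC1 had 61.1, 56.6 and 60.7 CPM at 24 h and 67.1, 61.8 and 59.7 CPM in droplets, which overlap.

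In all, 12 of the 15 tested AP-1 subunits rose and 1 fell, with a median log2 fold change of 0.94. Of 31 other immediate-early factors 21 rose and 4 fell (median 0.88). JUN, the usual partner of FOS proteins, had 353, 377 and 326 CPM at 24 h and 138, 133 and 129.8 CPM in droplets (log2 1.40 ± 0.06). FOSL1, an AP-1 subunit tied to invasive carcinoma cells, had 269.7, 337 and 306 CPM at 24 h and 85.5, 89.9 and 100.5 CPM in droplets (log2 1.72 ± 0.08). EGR1, a zinc-finger factor induced by serum and by stretch, had 476, 419 and 422 CPM at 24 h and 26.2, 23.3 and 24.7 CPM in droplets (log2 4.15 ± 0.13, adjusted p = 1.16e-12). These rises were alike in the 3 replicates. The brakes of the same response rose too: DUSP1, a phosphatase of MAP kinases, had a log2 fold change of 4.40 ± 0.13, and ZFP36, which speeds decay of immediate-early mRNAs, one of 3.59 ± 0.15. The wider MAPK feedback list was split, with 9 of 21 higher and 9 lower. JUNB, DUSP1 and NR4A1 share bases with an opposite-strand gene. Whether the authors counted by strand is not stated in the labels, so reads of such pairs cannot be told apart.

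Part of this response was smaller after 48 h. Libraries of both times were digested, and the part of digestion was not tested. Against droplets the median log2 fold change of AP-1 subunits was 0.94 at 24 h and 0.76 at 48 h. That of the other immediate-early factors was 0.88 at 24 h and 0.34 at 48 h. At 48 h compared with 24 h, 1077 genes were higher (6.32%) and 1171 lower (6.88%), and 21 of the 31 immediate-early factors and 6 of the 15 AP-1 subunits were among the lower. EGR1 averaged 144 ± 7.35 CPM at 48 h (SD, n = 3) and NR4A1, an orphan nuclear receptor, 26.8 ± 4.23 CPM, against 58.3 to 100.1 CPM at 24 h and 2.14 to 4.63 CPM in droplets. FOSL1 averaged 286 ± 8.06 CPM at 48 h, within its range at 24 h. Leaving out single libraries gave between 1357 and 2061 genes in all, below the 2248 with every library; without the second 24 h replicate there were 1357 and without the third 1562, while 18 to 21 of the 31 immediate-early factors were lower at 48 h in each of these fits. Omission of 48 h replicates 1, 2 and 3 left 1508, 1456 and 1805 genes.

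**Figure D2:**
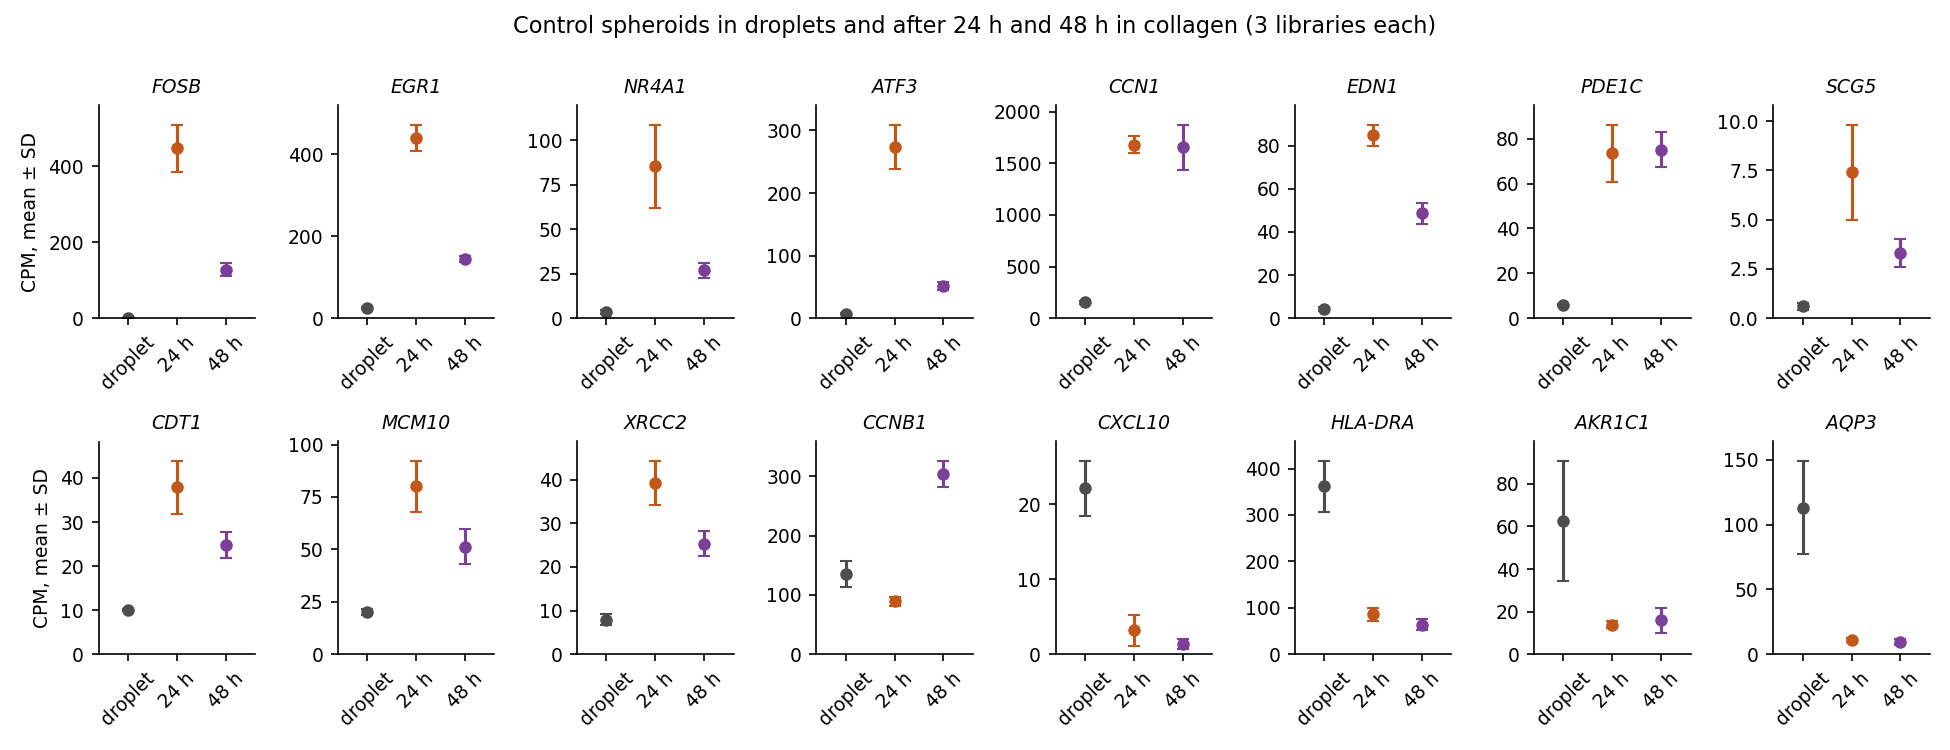
CPM (y axis, linear, starting at 0) in control spheroids from droplets and after 24 and 48 h in collagen for 16 genes, with points at the mean and bars for the SD of 3 libraries. EGR1 and NR4A1 peak at 24 h, CCN1 and PDE1C stay high at 48 h, and CCNB1 is highest at 48 h.

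Promoter sequences of EGR1 and FOSB are shown because these genes made some of the largest rises and carry, in the window searched, the classic elements of serum- and cAMP-responsive genes. They run from 250 bases before to 50 bases after the RefSeq start (GRCh38.p14), 5′ to 3′ on the gene's strand, with motif letters in capitals. In EGR1 (chr5:138465229-138465528, plus strand) the capitals mark 2 CArG boxes, the element bound by SRF, beginning at bases -105 and -83. In FOSB (chr19:45467746-45468045, plus strand) they mark the short cAMP response element TGACG, beginning at base -60. Both strands were searched.
EGR1: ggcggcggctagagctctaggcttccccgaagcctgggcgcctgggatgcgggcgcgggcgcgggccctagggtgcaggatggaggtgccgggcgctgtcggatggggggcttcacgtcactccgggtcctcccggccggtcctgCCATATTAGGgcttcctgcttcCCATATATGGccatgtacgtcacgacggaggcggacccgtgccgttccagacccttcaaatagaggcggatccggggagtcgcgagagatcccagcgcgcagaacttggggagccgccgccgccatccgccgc
FOSB: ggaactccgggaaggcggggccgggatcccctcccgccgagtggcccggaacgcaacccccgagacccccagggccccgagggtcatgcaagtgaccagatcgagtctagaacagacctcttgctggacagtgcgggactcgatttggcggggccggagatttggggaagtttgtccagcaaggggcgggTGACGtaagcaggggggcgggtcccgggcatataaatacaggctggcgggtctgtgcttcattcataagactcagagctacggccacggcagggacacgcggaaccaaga
The short cAMP response element was found in 8 of 12 AP-1 promoters with an entry (66.7%) and in 12 of 22 promoters of other immediate-early factors (54.5%), against 25.0% of all 27305 promoters of the same length. It also lay in 33.6% of promoters of the genes tested, in 28.3% of those of genes at least 2-fold higher at 24 h and in 22.1% of those of genes at least 2-fold lower. A CArG box was found in 2 of 22 immediate-early promoters (9.09%) and in 6 of 23 promoters of MRTF-SRF targets (26.1%), against 1.29% of all promoters and 1.07% of those of genes tested. It lay in 1.66% of promoters of genes at least 2-fold higher at 24 h and in 2.51% of those at least 2-fold lower. A match describes the letters only and is not evidence of binding.

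Targets of YAP and TAZ, the coactivators that enter the nucleus in spread or stretched cells, formed a second large group. Of 29 tested, 24 rose, 1 fell and 4 did not pass, with a median log2 fold change of 1.01. CCN1, a secreted matricellular protein, had 1604, 1671 and 1769 CPM at 24 h and 167, 159 and 133 CPM in droplets (log2 3.46 ± 0.12). CCN2, its relative known as connective tissue growth factor, had 859, 843 and 941 CPM at 24 h and 86.1, 82.2 and 86.7 CPM in droplets (log2 3.37 ± 0.09). EDN1, the vasoactive peptide endothelin, had 82.6, 81.5 and 90.4 CPM at 24 h and 4.67, 4.64 and 3.27 CPM in droplets (log2 4.34 ± 0.16). The groups stood apart by far more than the spread within either for each of these genes. AXL, a receptor kinase, rose by 1.44 ± 0.06 on the log2 scale, ANKRD1, a nuclear ankyrin protein, by 1.80 ± 0.11, and AMOTL2, a scaffold that holds YAP back, by 1.46 ± 0.07. The coactivators' own mRNAs went the other way: WWTR1, which encodes TAZ, fell by 0.94 on the log2 scale and YAP1 fell by 0.19. CCN1 was at 1657 ± 216 CPM at 48 h (SD, n = 3), within the range set by the 24 h libraries, and 7 of the 29 targets were lower at 48 h than at 24 h while 4 were higher.

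The CCN2 promoter (chr6:131951323-131951622, minus strand) is shown because it holds several copies of the TEAD element, the site of the DNA-binding partners of YAP and TAZ. The capitals mark CATTCC read on either strand (here as GGAATG), beginning at bases -169, -104 and -95.
CCN2: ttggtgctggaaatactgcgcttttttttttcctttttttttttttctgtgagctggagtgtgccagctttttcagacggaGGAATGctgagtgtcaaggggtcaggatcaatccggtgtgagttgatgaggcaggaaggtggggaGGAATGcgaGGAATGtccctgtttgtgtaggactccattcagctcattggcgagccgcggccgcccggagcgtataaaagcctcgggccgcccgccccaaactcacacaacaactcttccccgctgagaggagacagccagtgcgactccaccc
At least 1 TEAD element lay in 9 of 22 promoters of YAP-TAZ targets with an entry (40.9%), in 14% of all promoters and in 11.2% of those of genes tested.

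Cytoskeletal targets of MRTF and SRF moved less. Of 26 tested, 17 rose and 2 fell (median log2 fold change 0.36). FLNC, an actin crosslinker, had 223, 249 and 239.8 CPM at 24 h and 61.3, 58.6 and 55.2 CPM in droplets (log2 2.02 ± 0.08), and TPM1, a tropomyosin, 99.2, 93.9 and 114 CPM at 24 h and 46.1, 47.3 and 49.0 CPM in droplets (log2 1.11 ± 0.07). Genes of focal adhesions and invadopodia were mixed, with 12 of 29 higher and 9 lower, beside 27.8% and 28.7% of all genes tested.

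Integrins and other receptors for collagen and laminin did not rise as groups. Of 17 tested integrins, which include laminin receptors, 3 rose and 8 fell (median log2 fold change -0.39). Of 9 other collagen and laminin receptors tested 3 rose and 3 fell. Over all genes tested 27.8% rose and 28.7% fell. ITGB1, the shared beta subunit of all collagen-binding integrins, had 2768, 2675 and 2975 CPM at 24 h and 1864, 1904 and 2032 CPM in droplets (log2 0.54 ± 0.05, adjusted p = 1.10e-08). Its collagen-binding alpha partners were lower: ITGA1 had 200.3, 96.4 and 119 CPM at 24 h and 372, 353 and 409 CPM in droplets (log2 -1.45 ± 0.22, adjusted p = 9.51e-05). ITGA10 had 85.7, 78.1 and 65.0 CPM at 24 h and 238, 188 and 154 CPM in droplets (log2 -1.34 ± 0.20), and ITGA2 fell by 0.35 ± 0.13 (adjusted p = 0.0382). The 24 h and droplet libraries did not overlap for any of these 4 genes, nor for 62.0% of all genes tested. ITGA11, also a collagen-binding alpha subunit, did not pass (log2 -0.67). ITGA3 and ITGA6, subunits of laminin receptors, rose by 0.40 and 0.30, while ITGB4, the partner of ITGA6 in hemidesmosomes, fell by 1.00 ± 0.08. The discoidin receptors, kinases activated by collagen itself, split: DDR1 had 201, 159 and 154 CPM at 24 h and 306, 281 and 275 CPM in droplets (log2 -0.74 ± 0.11), and DDR2, with 2.25, 1.84 and 2.3 CPM at 24 h and 1.68, 1.03 and 1.05 CPM in droplets, rose by 0.78 ± 0.24. SDC1, a heparan sulfate proteoglycan of the cell surface, rose by 1.21 ± 0.07. ITGA1, ITGA2, ITGA10, ITGB1 and ITGB4 each overlap a gene on the opposite strand.

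Of 13 tested matrix metalloproteinases 2 rose and 6 fell (median -0.35), with 3 to 7 lower when single libraries were left out. MMP1, the secreted interstitial collagenase, had 424, 376 and 447 CPM at 24 h and 152, 207 and 247 CPM in droplets (log2 1.04 ± 0.18, adjusted p = 2.77e-04), with no overlap. MMP14, the membrane collagenase, had 1976, 1767 and 1713 CPM at 24 h and 1956, 1928 and 2250 CPM in droplets, which overlap (log2 -0.17 ± 0.08, adjusted p = 0.0801). MMP13, also a collagenase, had 1.38, 1.29 and 1.20 CPM at 24 h and 4.44, 4.03 and 4.67 CPM in droplets (log2 -1.77 ± 0.26). MMP14 did pass as lower by library size alone (-0.19), without a filter (-0.16), with the replicate block over 18 libraries (-0.17) and without the first 24 h replicate (-0.23). MMP2 and MMP9, the gelatinases, stayed under 2 CPM in all 6 libraries and did not pass. MMP16, a membrane relative of MMP14, fell by 1.09 ± 0.12 and MMP19 rose by 0.60 ± 0.15. The inhibitor TIMP3 had 1727, 1377 and 1314 CPM at 24 h and 2564, 2300 and 2356 CPM in droplets (log2 -0.71 ± 0.11), TIMP2, which also helps MMP14 activate pro-MMP2, rose by 0.32 ± 0.05, and TIMP1 did not pass (adjusted p = 0.158). MMP1 overlaps the pseudogene WTAPP1 on the opposite strand.

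The plasminogen system, the other pericellular protease cascade, rose in 8 of 15 genes and fell in 4 (median 0.29). Log2 fold changes over these genes ran from -2.14 to 3.07, and the gene with the largest rise is not among those given here. PLAU, the urokinase, had 400.0, 391 and 449.6 CPM at 24 h and 223, 227 and 247 CPM in droplets (log2 0.83 ± 0.06), and F3, tissue factor, rose by 2.01 ± 0.08. SERPINE2, protease nexin-1, went down, with 56.7, 51.6 and 50.1 CPM at 24 h and 296, 243 and 159.5 CPM in droplets (log2 -2.14). The urokinase receptor PLAUR rose by 0.29 ± 0.07, so the enzyme and its receptor were both higher at 24 h.

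Collagen and laminin genes moved both ways, as did all genes tested, of which 27.8% rose and 28.7% fell. Of 25 collagen genes 10 rose and 6 fell (median -0.03). COL12A1, a collagen that decorates fibrils, rose by 1.20 ± 0.16, while COL6A1, a chain of the microfibrillar collagen VI, had 315, 279 and 245 CPM at 24 h and 623, 555 and 523 CPM in droplets (log2 -1.02 ± 0.10). Of 12 laminin and basement membrane genes 3 rose and 5 fell. LAMB3, the beta chain of laminin-332, had 956, 946 and 917 CPM at 24 h and 629.7, 594 and 605 CPM in droplets (log2 0.62 ± 0.05), but the alpha chain LAMA3 did not pass (log2 -0.09). Fibroblast markers, which would show another source of matrix transcripts, summed to 45 to 55 CPM at 24 h and 51 to 62 CPM in droplets over 11 listed genes. Of the 7 that were tested 1 rose and 3 fell. The part of fibroblasts in the collagen values was not tested. In bulk RNA, fewer cells of a kind and less RNA per cell cannot be told apart.

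**Figure D3:**
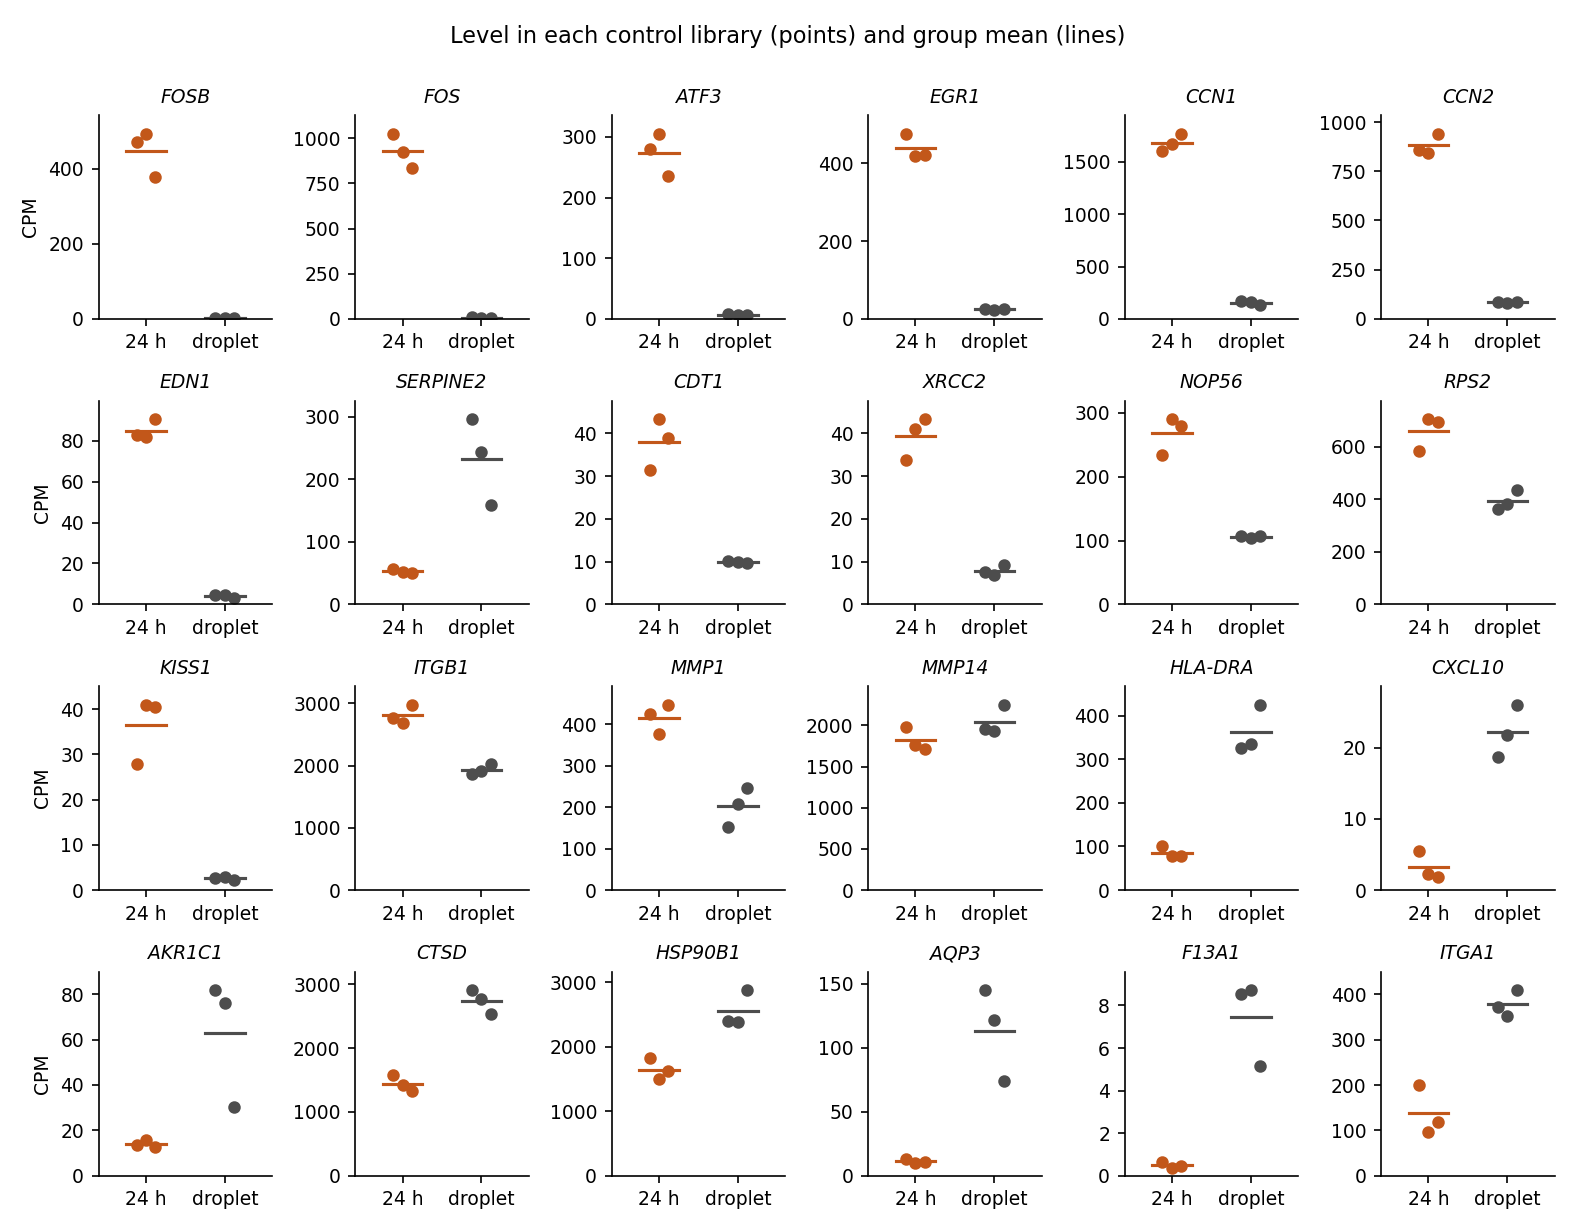
CPM (y axis, linear, starting at 0) of 24 genes in each of the 3 libraries at 24 h in collagen (left in each panel) and the 3 droplet libraries (right), with lines at the group means. MMP14 is the gene shown in which the groups overlap; for FOSB, FOS and ATF3 they stand furthest apart.

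DNA replication genes rose without exception. All 43 listed replication genes were tested and all 43 rose, by 0.41 to 1.99 on the log2 scale (median 1.36), and they did so in each of 14 alternative analyses, 6 of which left out a single library. CDT1, which loads the MCM helicase at origins, had 31.3, 43.3 and 38.9 CPM at 24 h and 10.2, 10.0 and 9.75 CPM in droplets (log2 1.92 ± 0.11, adjusted p = 5.59e-12). MCM10, which helps start the helicase, had 66.2, 86.0 and 88.2 CPM at 24 h and 20.1, 18.8 and 21.8 CPM in droplets (log2 1.99). Both groups are well apart, although the first 24 h replicate was the lowest of the 3 for all 43 genes.

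The 23 tested genes of homologous recombination and the Fanconi pathway, which repair broken and crosslinked DNA at forks, also rose without exception, by 0.21 to 2.32 (median 1.419). XRCC2, a recombination factor, had 33.7, 40.9 and 43.3 CPM at 24 h and 7.48, 6.92 and 9.29 CPM in droplets (log2 2.32 ± 0.14, adjusted p = 1.22e-10). EXO1, a resecting nuclease, had 53.2, 68.6 and 72.8 CPM at 24 h and 15.4, 16.5 and 18.6 CPM in droplets (log2 1.95 ± 0.13). BRCA1 rose by 1.09 and BRCA2, its partner in recombination, by 1.05 ± 0.12, whereas PALB2, the bridge between them, moved least of those with values here (0.21 ± 0.08, adjusted p = 0.0202). Between 22 and 23 of these genes passed in every alternative analysis. In all 23 the first 24 h replicate was the lowest of its group. BRCA1 overlaps an opposite-strand gene.

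The promoters of CDT1 (chr16:88803539-88803838, plus strand) and XRCC2 (chr7:152676092-152676391, minus strand) are shown as examples of S-phase genes with an E2F element, the site through which RB and E2F factors time their transcription. The motif searched was TTTCCCGC, TTTGGCGC, TTTCGCGC or TTTGCCGC on either strand. The capitals mark it as GCGGGAAA, beginning at base -35 in CDT1 and at base 22 after the start in XRCC2.
CDT1: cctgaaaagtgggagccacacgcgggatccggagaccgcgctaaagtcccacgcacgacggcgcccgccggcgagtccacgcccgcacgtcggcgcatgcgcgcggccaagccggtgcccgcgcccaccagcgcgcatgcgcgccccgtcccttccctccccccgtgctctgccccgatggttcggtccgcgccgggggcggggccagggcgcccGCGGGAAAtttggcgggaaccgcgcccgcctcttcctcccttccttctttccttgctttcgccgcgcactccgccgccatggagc
XRCC2: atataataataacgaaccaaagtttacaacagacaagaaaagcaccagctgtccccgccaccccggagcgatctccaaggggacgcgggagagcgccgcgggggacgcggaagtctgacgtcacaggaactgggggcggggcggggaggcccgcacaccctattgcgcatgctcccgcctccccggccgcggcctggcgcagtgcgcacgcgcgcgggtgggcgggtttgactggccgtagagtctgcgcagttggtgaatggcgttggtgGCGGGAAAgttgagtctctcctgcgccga
An E2F element lay in 19 of 36 replication promoters with an entry (52.8%) and in 6 of 20 recombination and Fanconi promoters (30.0%), against 3.33% of all promoters and 5.27% of those of genes tested. Over the genes called at least 2-fold, it lay in 10.1% of promoters of those that rose and 1.88% of those that fell.

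Mitosis genes were split at 24 h. Of 42 mitosis and cytokinesis genes 18 rose, 6 fell and 18 did not pass (median 0.32). CCNB1, the cyclin of mitotic entry, had 79.7, 92.3 and 95.0 CPM at 24 h and 118, 128 and 159.8 CPM in droplets, and fell by 0.60 on the log2 scale. KIF20A, a kinesin of the cleavage furrow, had 33.1, 41.6 and 37.8 CPM at 24 h and 80.5, 89.9 and 107 CPM in droplets (log2 -1.30 ± 0.16). AURKB, the kinase of the chromosomal passenger complex, rose instead, by 1.11 ± 0.15. The order had changed by 48 h, when 33 of the 42 were higher than at 24 h and none lower, while 31 of the 43 replication genes and 13 of the 23 repair genes were lower (25 to 38 and 7 to 18 with single libraries left out). CCNB1 then averaged 304 ± 22.1 CPM and KIF20A 149 ± 12.2 CPM (SD, n = 3 each). The first 24 h replicate was the lowest of its group for all 42 mitosis genes, and the third droplet replicate was the highest of its group for 41. Without that 24 h replicate 27 mitosis genes rose and 4 fell. Across all single omissions 11 to 27 rose and 4 to 7 fell. Among regulators of the G1 to S transition 17 of 24 rose and 4 fell (median 0.55). CCNE1, the cyclin that drives S-phase entry, rose by 1.28 ± 0.11, and CDKN1A, the inhibitor p21, rose too, by 0.34 ± 0.06. Of 17 histone genes seen in these polyadenylated libraries 9 fell and 5 rose (median -0.77). The sum over the 21 listed histone genes went the other way, with 897 to 1034 CPM at 24 h and 810 to 870 CPM in droplets.

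Genes that build ribosomes rose alongside. Of 37 genes of MYC and ribosome biogenesis 34 rose and none fell (median 0.63), and the first 24 h replicate was the lowest of its group for 35. MYC itself had 109, 113 and 112 CPM at 24 h and 51.5, 54.0 and 51.2 CPM in droplets (log2 1.09). NOP56, a core protein of small nucleolar ribonucleoproteins, had 235, 290.2 and 279 CPM at 24 h and 107, 104 and 107 CPM in droplets (log2 1.34), and BOP1, a processing factor of the large subunit, rose by 1.15 ± 0.10. Of 74 cytosolic ribosomal protein genes 70 rose and 1 fell, each by less than 2-fold (median 0.42). RPS2, a small-subunit protein, had 585, 705 and 695 CPM at 24 h and 365, 383 and 436 CPM in droplets (log2 0.75), while RPS4X was the 1 that fell (log2 -0.34 ± 0.06). The first 24 h replicate was the lowest of its group for 69 of the 74 and the third droplet replicate the highest of its group for 71, yet 66 to 70 genes passed as higher in every alternative. Many ribosomal protein genes have processed pseudogenes that can share reads. Of 20 aminoacyl-tRNA synthetases 15 rose and 1 fell, and the host genes of small nucleolar RNAs SNHG1 and GAS5 rose by 1.69 ± 0.09 and 1.28 ± 0.07.

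**Figure D4:**
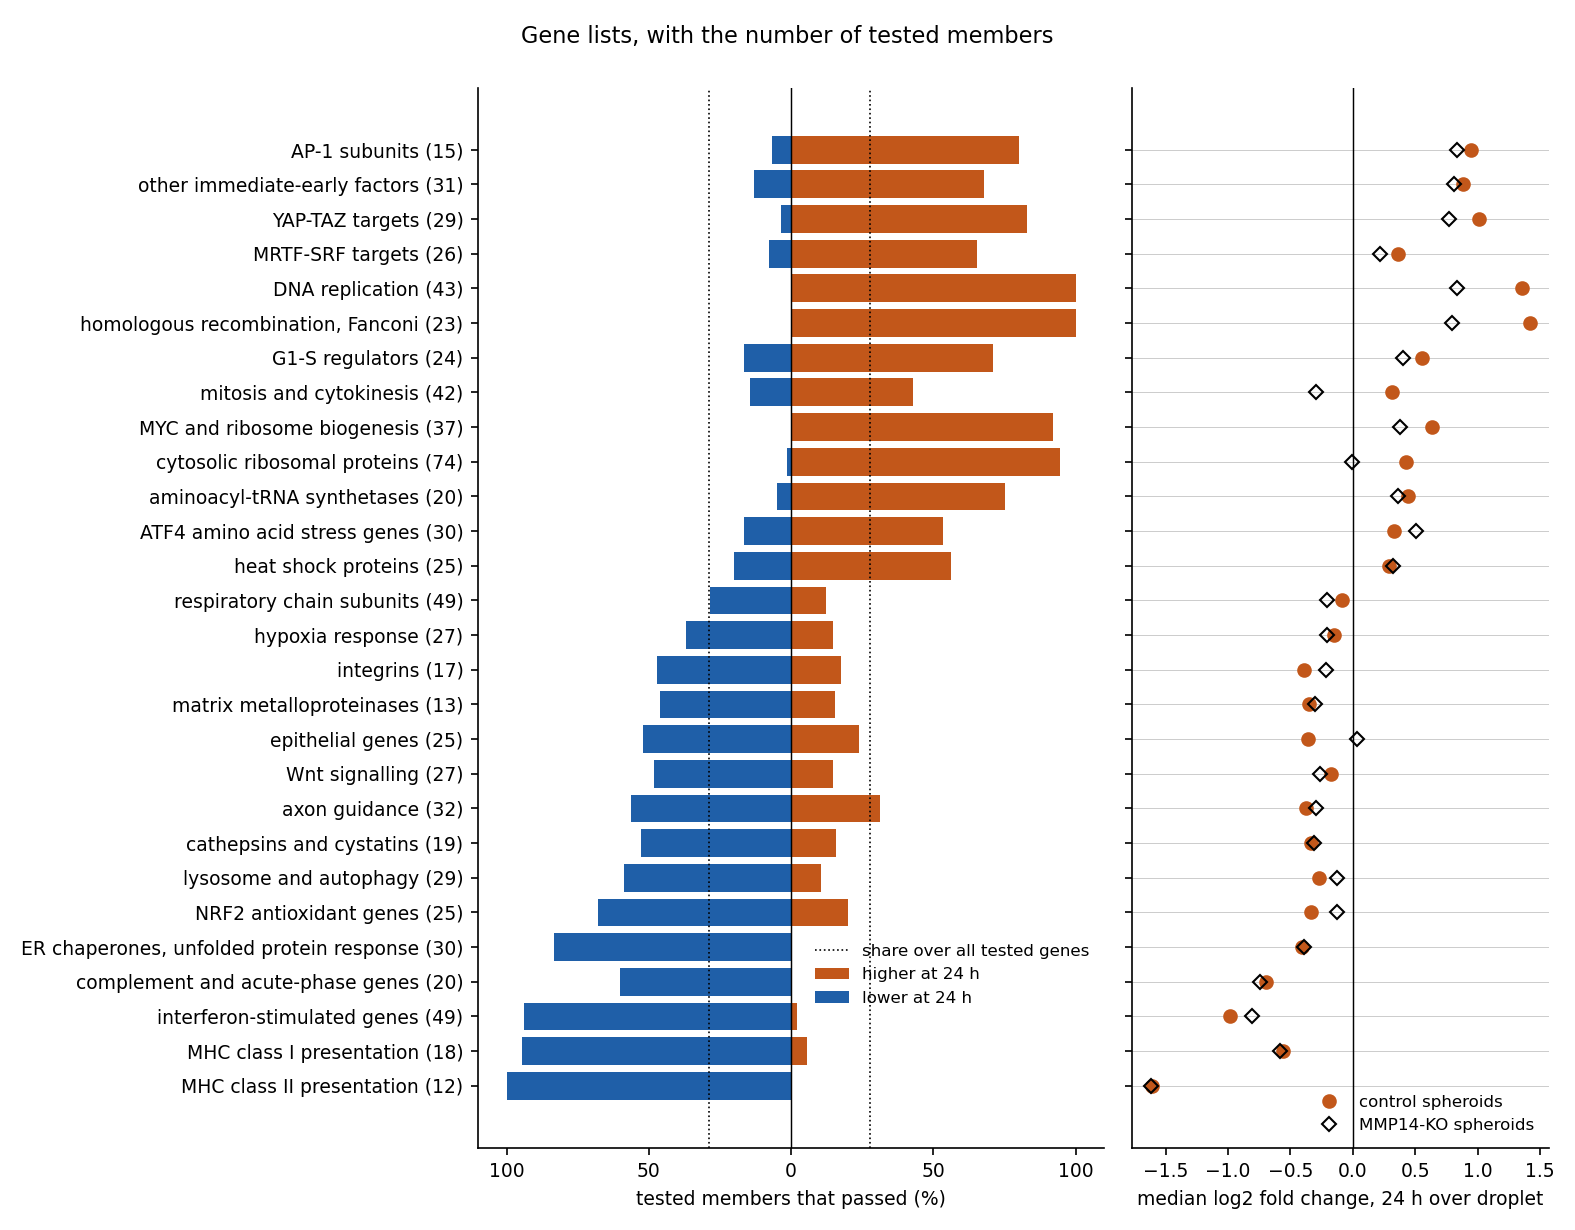
For 28 gene lists, the percent of tested members that rose or fell at 24 h (left panel, dotted lines marking the shares over all genes tested, 27.8% and 28.7%) and the median log2 fold change (right panel) in control spheroids (filled circles) and MMP14-KO spheroids (open diamonds). Replication and repair reach 100% higher, MHC class II 100% lower, and ribosomal proteins have medians of 0.42 in control and -0.01 in MMP14-KO spheroids.

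Interferon and antigen presentation genes fell together. Of 49 interferon-stimulated genes 46 fell and 1 rose (median -0.99). CXCL10, a chemokine that draws T cells, had 5.55, 2.19 and 1.84 CPM at 24 h and 18.7, 21.7 and 26.0 CPM in droplets (log2 -2.84 ± 0.33, adjusted p = 5.22e-06). IFIT1, which binds foreign RNA caps, had 45.8, 41.1 and 42.8 CPM at 24 h and 131, 137 and 126 CPM in droplets (log2 -1.60). The first 24 h replicate was the highest of its group for 34 of the 49 genes, which is visible for CXCL10, and without it 46 genes still fell and 1 rose.

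The CXCL10 promoter (chr4:76023448-76023747, minus strand) is shown for its interferon response core, GAAANNGAA searched on both strands, which is marked in capitals and begins at base -221.
CXCL10: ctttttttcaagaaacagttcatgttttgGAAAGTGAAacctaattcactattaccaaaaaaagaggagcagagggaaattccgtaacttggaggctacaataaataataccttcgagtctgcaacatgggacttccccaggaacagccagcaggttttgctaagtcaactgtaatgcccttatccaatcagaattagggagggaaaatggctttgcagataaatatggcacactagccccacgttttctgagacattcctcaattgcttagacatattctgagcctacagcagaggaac
This core lay in 26 of 38 promoters of interferon-stimulated genes with an entry (68.4%) and in 9 of 15 promoters of MHC class I presentation genes (60.0%), against 8.29% of all promoters and 6.70% of those of genes tested. CXCL10, CXCL11 and IFIT1 overlap opposite-strand genes.

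All 12 tested genes of MHC class II presentation fell (median -1.61), 11 of them at least 2-fold. The first 24 h replicate was the highest of its group for 11 of the 12, and the third droplet replicate the highest of its group for 10. HLA-DRA, the alpha chain of HLA-DR, had 102, 77.5 and 79.1 CPM at 24 h and 325, 335 and 425 CPM in droplets (log2 -2.07 ± 0.16, adjusted p = 1.05e-07). CIITA, the coactivator that switches on class II genes, had 24.3, 19.3 and 16.9 CPM at 24 h and 53.5, 48.7 and 49.2 CPM in droplets (log2 -1.33), and CD74, the invariant chain chaperone, fell by 0.85 ± 0.10. Of 18 class I presentation genes 17 fell and 1 rose (median -0.56); B2M, the shared light chain, had 1146, 979.8 and 993 CPM at 24 h and 1416, 1465 and 1712 CPM in droplets (log2 -0.56 ± 0.07). Leukocytes also express class II genes. The 12 listed leukocyte markers summed to 122 to 139 CPM at 24 h and 145 to 155 CPM in droplets. Of the 6 that were tested 3 were lower, and the lineage genes CD3E, MS4A1 and SPI1 were at 0. The part of leukocytes in the class II values was not tested. Reads of HLA genes can be shared among close paralogs.

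Inflammatory genes were less uniform. Of 31 genes of the NF-kB pathway and its cytokines 14 fell and 6 rose (median -0.40), and of 20 complement and acute-phase genes 12 fell and none rose (median -0.69). ICAM1, an adhesion molecule for leukocytes, had 364, 150.2 and 167 CPM at 24 h and 832, 783 and 721 CPM in droplets (log2 -1.78). CXCL8, the neutrophil chemokine, had 646, 234 and 254 CPM at 24 h and 388, 539 and 459.6 CPM in droplets, which overlap (log2 -0.29 ± 0.39, adjusted p = 0.552). IL6 had 111, 71.1 and 60.3 CPM at 24 h and 34.5, 50.7 and 47.6 CPM in droplets and rose by 0.86 ± 0.23. The first 24 h replicate stood above the other 24 h replicates for each of these genes, and it was the highest of its group for 27 of 31 NF-kB and 17 of 20 complement genes. Without it 17 NF-kB genes fell and 6 rose, and 14 complement genes fell and none rose.

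Chaperones of the endoplasmic reticulum and the unfolded protein response fell in 25 of 30 genes and rose in none (median -0.40). In 24 of the 30 the first 24 h replicate was the highest of its group, with the third droplet replicate the highest of its group for 21. HSP90B1, the luminal HSP90, had 1818, 1494 and 1617 CPM at 24 h and 2392, 2388 and 2873 CPM in droplets (log2 -0.63), and XBP1, a transcription factor of the response, fell by 0.69 ± 0.06. DDIT3, the death-linked factor CHOP, did not pass (log2 0.09 ± 0.11). Heat shock proteins of the cytosol and mitochondria went the other way in 14 of 25 genes, with 5 lower: HSPD1, the mitochondrial chaperonin, rose by 0.84 ± 0.08, while HSPH1, a cytosolic exchange factor, had 323, 293 and 312 CPM at 24 h and 617, 566 and 379 CPM in droplets (log2 -0.75 ± 0.15).

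Antioxidant targets of NRF2 fell in 17 of 25 genes and rose in 5 (median -0.34). AKR1C1, an aldo-keto reductase, had 13.6, 15.5 and 12.5 CPM at 24 h and 81.6, 76.1 and 30.3 CPM in droplets (log2 -2.17 ± 0.40), with the third droplet replicate well below the others. NQO1, a quinone reductase, had 88.4, 82.3 and 91.0 CPM at 24 h and 154, 183 and 173 CPM in droplets (log2 -0.97), and FTH1, ferritin heavy chain, 844, 706 and 706 CPM at 24 h and 1289, 1380 and 1403 CPM in droplets (log2 -0.85). TXNRD1, thioredoxin reductase, rose by 0.34 ± 0.05, and HMOX1, haem oxygenase, did not pass (adjusted p = 0.358). Lysosome and autophagy genes fell in 17 of 29 and rose in 3 (median -0.27): SQSTM1, the autophagy receptor p62, fell by 1.04 ± 0.10 and LAMP1, a lysosomal membrane protein, by 0.26 ± 0.05. Of 19 cathepsins and cystatins 10 fell and 3 rose. CTSD, the aspartic cathepsin, had 1572, 1421 and 1325 CPM at 24 h and 2905, 2773 and 2533 CPM in droplets (log2 -0.93), whereas CTSB, a cysteine cathepsin, did not pass (log2 -0.14 ± 0.07). AKR1C1 has near-identical paralogs, and NQO1, FTH1, SQSTM1 and CTSD overlap opposite-strand genes.

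Epithelial genes fell in 13 of 25 and rose in 6 (median -0.36). CLDN2, a pore-forming claudin that is not among these 25, had 6.68, 5.16 and 4.76 CPM at 24 h and 43.2, 43.7 and 40.8 CPM in droplets, and fell by 2.96 ± 0.19. EPCAM, an epithelial adhesion protein, fell by 0.55 ± 0.12, yet OCLN and CGN, proteins of tight junctions, rose by 0.79 ± 0.09 and 1.00 ± 0.16. Mesenchymal factors and markers rose in 7 of 16 and fell in 5, beside 27.8% and 28.7% of all genes tested. VIM, vimentin, had 3120, 3251 and 3306 CPM at 24 h and 2047, 1930 and 2195 CPM in droplets (log2 0.65 ± 0.06), and ZEB1 did not pass (log2 -0.09 ± 0.06). AQP3, a channel for water and glycerol, had 12.8, 10.1 and 10.3 CPM at 24 h and 145, 121 and 73.7 CPM in droplets (log2 -3.36). F13A1, the A chain of factor XIII, had 0.626, 0.352 and 0.460 CPM at 24 h and 8.55, 8.71 and 5.16 CPM in droplets (log2 -3.96). PTGS1, cyclooxygenase-1, had 1.88, 2.93 and 2.55 CPM at 24 h and 32.5, 19.4 and 7.11 CPM in droplets (log2 -2.98 ± 0.49), but did not pass when only these 6 libraries were fitted with the replicate number as a block (log2 -2.77). The third droplet replicate was the lowest of its group for AQP3, F13A1 and PTGS1.

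Genes of secreted signals and their receptors went both ways, beside 27.8% of all genes tested that rose and 28.7% that fell. Of 27 Wnt pathway genes 13 fell and 4 rose (median -0.18): AXIN2, a feedback target of the pathway, had 9.89, 7.47 and 7.86 CPM at 24 h and 17.6, 16.8 and 17.7 CPM in droplets (log2 -1.05 ± 0.11), and DKK1, a secreted antagonist, 305, 349 and 353 CPM at 24 h and 74.5, 72.6 and 62.0 CPM in droplets (log2 2.27 ± 0.10). Axon guidance genes fell in 18 of 32 and rose in 10 (median -0.38). SEMA7A, a membrane-anchored semaphorin that binds integrins, had 94.1, 105 and 112 CPM at 24 h and 24.3, 23.4 and 24.2 CPM in droplets (log2 2.11 ± 0.07), while EPHB6, an ephrin receptor without kinase activity, fell by 2.34 ± 0.20. Of 21 BMP pathway genes 6 rose and 10 fell (median -0.21). NOG, a secreted BMP trap, had 115, 135 and 129.5 CPM at 24 h and 38.2, 38.7 and 23.9 CPM in droplets (log2 1.92 ± 0.20) and BMP4 fell by 0.55 ± 0.08. INHBA, which encodes activin A, rose by 1.5 ± 0.10, and IL11, a cytokine of the IL-6 family, by 2.05 ± 0.14. KISS1, named as a metastasis suppressor, had 27.8, 41.0 and 40.5 CPM at 24 h and 2.76, 2.93 and 2.18 CPM in droplets (log2 3.80 ± 0.20).

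Several further genes made large changes. MIR23AHG, the host transcript of a microRNA cluster, had 348, 363 and 265 CPM at 24 h and 14.9, 11.7 and 8.35 CPM in droplets (log2 4.82 ± 0.19, adjusted p = 9.38e-11), and it overlaps ZSWIM4 on the opposite strand. KRTAP2-3, a hair keratin-associated protein with near-identical paralogs, had 14.4, 13.9 and 19.2 CPM at 24 h and 0.467, 0.107 and 0.226 CPM in droplets (log2 5.96). PDE1C, a calmodulin-dependent phosphodiesterase, had 58.8, 81.3 and 80.4 CPM at 24 h and 5.42, 6.17 and 5.38 CPM in droplets (log2 3.70 ± 0.18). PDE1C kept this level at 48 h (75.2 ± 7.95 CPM, SD, n = 3), whereas SCG5, a secretory granule chaperone, averaged 3.31 ± 0.689 CPM at 48 h and had 6.51, 5.55 and 10.1 CPM at 24 h and 0.701, 0.393 and 0.715 CPM in droplets (log2 3.64 ± 0.26). On the falling side LTB, lymphotoxin beta, had 3.17, 1.92 and 1.14 CPM at 24 h and 20.1, 16.6 and 11.8 CPM in droplets (log2 -2.99 ± 0.40). AQP5, a water channel of glands, had 1.34, 1.02 and 0.675 CPM at 24 h and 15.0, 9.88 and 6.77 CPM in droplets (log2 -3.40 ± 0.33). RANBP3L had 0.125, 0.821 and 0.307 CPM at 24 h and 8.83, 6.39 and 1.17 CPM in droplets (log2 -3.69 ± 0.88), the widest spread among these genes.

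The same step was compared in MMP14-KO spheroids through the difference of the 24 h responses, control minus MMP14-KO. That difference passed for 697 genes in which the control response was the higher (4.09%) and for 565 in which it was the lower (3.32%). The total of 1262 depended on single libraries. Without 24 h control replicates 1, 2 and 3 it was 1974, 604 and 406, and without the control droplet replicates 453, 637 and 1769. Without the MMP14-KO droplet replicates it was 837, 1107 and 567, and without the MMP14-KO 24 h replicates 656, 751 and 930. Of the 43 replication genes 31 had a higher control response and none a lower one, with medians of 1.36 in control and 0.83 in MMP14-KO spheroids; single omissions left 13 to 41. Among the 74 ribosomal protein genes 56 differed the same way, with medians of 0.42 and -0.01, and 28 to 65 did so under omissions. In mitosis genes the medians were 0.32 in control and -0.30 in MMP14-KO spheroids, and 10 of 42 differed (1 to 32 under omissions).

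Of 31 immediate-early factors 2 had a higher control response (0 to 2 when single libraries were left out), and of 15 AP-1 subunits 3 did (1 to 3), beside 4.09% of all genes tested. JUN was among them (0.57, adjusted p = 0.00127). Of 29 YAP-TAZ targets 6 had a higher control response (1 to 7 under omissions) and 1 a lower one. For CCN2 the difference was 0.89 ± 0.11 (adjusted p = 4.38e-04), and for PLAU 0.47 ± 0.09 (adjusted p = 0.00545). Interferon-stimulated genes fell in both genotypes, with medians of -0.99 in control and -0.81 in MMP14-KO spheroids, and 11 of 49 had the lower response in control (8 to 17 under omissions, with 17 without the first 24 h control replicate). The medians of the class II presentation genes were -1.61 in control and -1.62 in MMP14-KO spheroids. Falls that were larger in control spheroids included AQP3, with a difference of -1.78 (adjusted p = 0.0153), CLDN2 with -1.56 ± 0.27 (adjusted p = 0.00555) and F13A1 with -2.01 ± 0.38 (adjusted p = 0.00507). The 13 mitochondrially encoded mRNAs had a median log2 fold change of 0.14 in control, where 1 rose, and of 1.03 in MMP14-KO spheroids, where all 13 rose. The difference between genotypes itself passed for 1 of the 13, lower in control, and for 0 to 10 of them when single libraries were left out.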

How the data were processed

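RNA was measured in 18 polyA RNA-seq libraries in 6 groups of 3 (control and MMP14-KO spheroids from droplets and after 24 and 48 h in collagen). The deposited values are expected counts for each gene, made by the authors and already whole numbers (0 values were not whole), in 62714 rows. Per the submitters' processing notes, the tools were cutadapt 2.3, FastQC 0.11.8, STAR 2.7.8a, RSEM 1.3.3, MultiQC 1.7 and DESeq2 1.42.0 on GRCh38. Neither the annotation release nor the strand setting is stated there or in the labels. Of these rows 4 reporter rows with 0 counts were left out. Of the 62710 genes left, 20930 had no symbol, 551 symbols were filled from the reference, 58274 matched GENCODE 29 and 29346 had no read. Expected counts share multi-mapping reads out by estimate, which makes values of near-identical paralogs uncertain.

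All 18 libraries entered 1 fit by group (12 residual degrees of freedom) in edgeR 4.0.16 (limma 3.58.1, R 4.3.3), with TMM scaling, filterByExpr (minimum count 10; 17030 genes kept), quasi-likelihood tests and Benjamini-Hochberg adjustment over all genes tested. Called means an adjusted p under 0.05. The same fit gave the 48 h against 24 h contrast and the difference of the control and MMP14-KO responses, which share the control libraries with the main contrast. Alternatives were DESeq2 size factors, library size alone, no filter, a minimum count of 50, only the 6 libraries compared, the replicate number as a block, each library left out in turn, and DESeq2's Wald test.

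The members and gene lists were chosen with earlier results of these data known. Genes to name were drawn from MMP14, the 12 largest rises and 12 largest falls (at least 5 CPM in the higher group, groups that do not overlap, a proper symbol), up to 5 passing members (at least 1 CPM) and up to 2 contrary members of each list, the 6 smallest adjusted p of the genotype difference in each direction, and list members whose role is described. The text gives only part of these genes and leaves out some lists. The genes shown for a list are therefore not always its largest changes. Promoters came from RefSeq (GRCh38.p14), with entries for 11829 of the 17030 genes. Depth sets precision: at the totals given, genes under 1 CPM rest on few reads.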

Additional observations from a re-analysis of the deposited data

Results flagged for a closer look

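The results below stood out because the 24 h response of control spheroids differed from that of MMP14-KO spheroids by a test of the difference itself (edgeR's quasi-likelihood test, adjusted over all 17030 genes). In all 1262 genes differed, a number that moved between 406 and 1974 when single libraries were left out. Values are log2 differences of the responses, control minus MMP14-KO.

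Among genes that rose in control spheroids, CCN2, a matricellular growth factor, differed by 0.89, G0S2, an inhibitor of lipolysis, by 1.17, and CDCA7L, a MYC-interacting protein, by 0.71. MT2A, a metallothionein, differed by 0.83, CCNE2, a cyclin of S-phase entry, by 1.25, and JUN by 0.57. Each of these rose more in control spheroids.

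Among genes that fell in control spheroids, TACC2, a centrosome-linked protein, differed by -0.74, PDGFRB, a receptor kinase, by -1.06, TRIML2 by -1.01 and SLC38A4, an amino acid transporter, by -0.79. BMF, a BH3-only protein of cell death, differed by -1.01 and BMP4 by -0.79. Larger differences were seen in 5 genes whose falls rank among the largest in control spheroids: F13A1 (-2.01), AQP5 (-2.35), AQP3 (-1.78), CLDN2 (-1.56) and C9orf152 (-1.39). AQP5, CLDN2, CCN2 and CCNE2 share bases with opposite-strand genes.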

How the results depend on the processing

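Counts of calls between 24 h and droplet libraries moved little: 9622 genes passed, against 9625 with DESeq2 size factors, 9690 by library size alone, 9523 without a filter, 8861 at a minimum count of 50, 9131 with only the 6 libraries, 9367 with DESeq2's Wald test and 8691 to 9350 with 1 library left out. Genes at least 2-fold changed fell to 672 higher and 612 lower at a minimum count of 50, where fewer genes are tested. The genotype difference gave 2046 genes without a filter and 406 to 1974 with single libraries left out, and the 48 h against 24 h contrast 1357 to 2061; the cause was not tested. With the replicate number as a block, 4614 genes were higher and 4587 lower in the 6 libraries, 4775 and 4934 in all 18, and 1782 differed between genotypes. The labels do not say whether same-numbered libraries shared a culture or batch. Deviations of same-numbered 24 h and droplet libraries correlated at 0.00, -0.03 and 0.02, which with 3 libraries a group cannot settle it. List medians changed sign in 5 cases close to 0: BCL2 family (-0.00968 at a minimum count of 50, -0.000899 without the second droplet replicate and at most 0.0526 with another library left out), metallothioneins and zinc transport (-0.0136 at a minimum count of 50), and matricellular and fibre glycoproteins (0.00951 with only the 6 libraries, 0.0142 with the block in them). Of 379 genes drawn for naming, not all of which are given in the text, 358 kept their call and direction in each of the 14 alternatives that tested them. At a minimum count of 50 only 366 of the 379 were tested. MMP14 passed as lower by library size alone (-0.19), without a filter (-0.16), with the block over 18 libraries (-0.17) and without the first 24 h replicate (-0.23). Genes under 1 CPM are limited by depth.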
